A study of Mus musculus with 4 samples.

Results

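The BAFF, CD40 and TNF receptor family was read here as 9 genes of B cell survival, help and death signalling. Its members were the BAFF and APRIL receptor genes Tnfrsf13c, Tnfrsf13b and Tnfrsf17, the receptor genes Cd40, Fas and Tnfrsf1b, and the ligand genes Lta, Ltb and Tnf. All probe sets that the platform annotation gives to 1 of these symbols alone were taken, which gave 12 of 45101 probe sets, for 9 of the 18194 genes named on the array. A probe set is the group of short oligonucleotides from which an Affymetrix array reads 1 transcript. Cd40 had 3, Tnfrsf1b had 2 and each other member had 1.

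Each of 4 groups of B cells from adult wild type C57BL6/J mice had 1 array, made from RNA pooled over 3 to 5 mice. Germinal centre (GC) B cells, which divide and mutate their antibody genes, were sorted by the surface phenotype B220+PNA+Fas+, and naive B cells, which have not met antigen, by B220+PNA-Fas-. The groups were GC and naive cells of the Peyer's patches (PP), the gut's own lymphoid follicles, of untreated mice, and GC and naive cells of the peripheral lymph nodes (pLN) of mice immunised with TNP-KLH in incomplete Freund's adjuvant. No value has a replicate within its group, and pooling removed the variation between mice. Tissue and immunisation cannot be told apart.

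Receptors of this family carry survival or death signals into the cell through TRAF adaptors or death domains. BAFF-R, the product of Tnfrsf13c, keeps resting B cells alive through the alternative NF-kB pathway, and CD40 receives the help that T cells give to GC B cells. Fas starts apoptosis when its ligand binds, and lymphotoxin, built from the products of Lta and Ltb, maintains the stroma of lymphoid follicles.

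Signals are the deposited intensities, scaled so that every array had a 2% trimmed mean of 500. A probe set counted as detected above the 90th percentile of 67 probe sets for genes of other tissues, which was 95.6 on the GC PP array, 135 on naive PP, 31.4 on GC pLN and 78.6 on naive pLN. Levels of different probe sets cannot be set against each other, so every fold below is within a probe set. All 8 measured B cell markers were detected on all 4 arrays. Of 6 GC markers, 6 were detected on each GC array, against 2 on naive PP and 3 on naive pLN. Gapdh has control probe sets at both ends of its transcript, and their 3'/5' ratio, a measure of RNA or labelling quality, was 1.67 on GC PP against 96.4 on naive PP and 1.48 on GC pLN against 18.7 on naive pLN. This 3' bias moved with cell type, and its part in the GC-naive values below was not tested. The 9 hybridisation control probe sets had a median of 3071 on GC PP against 11565 on naive PP, and 3217 on GC pLN against 4588 on naive pLN. Scaling to them in place of the trimmed mean would add 1.91 in PP and 0.51 in pLN to every GC-naive log2 fold.

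**Figure D1:**
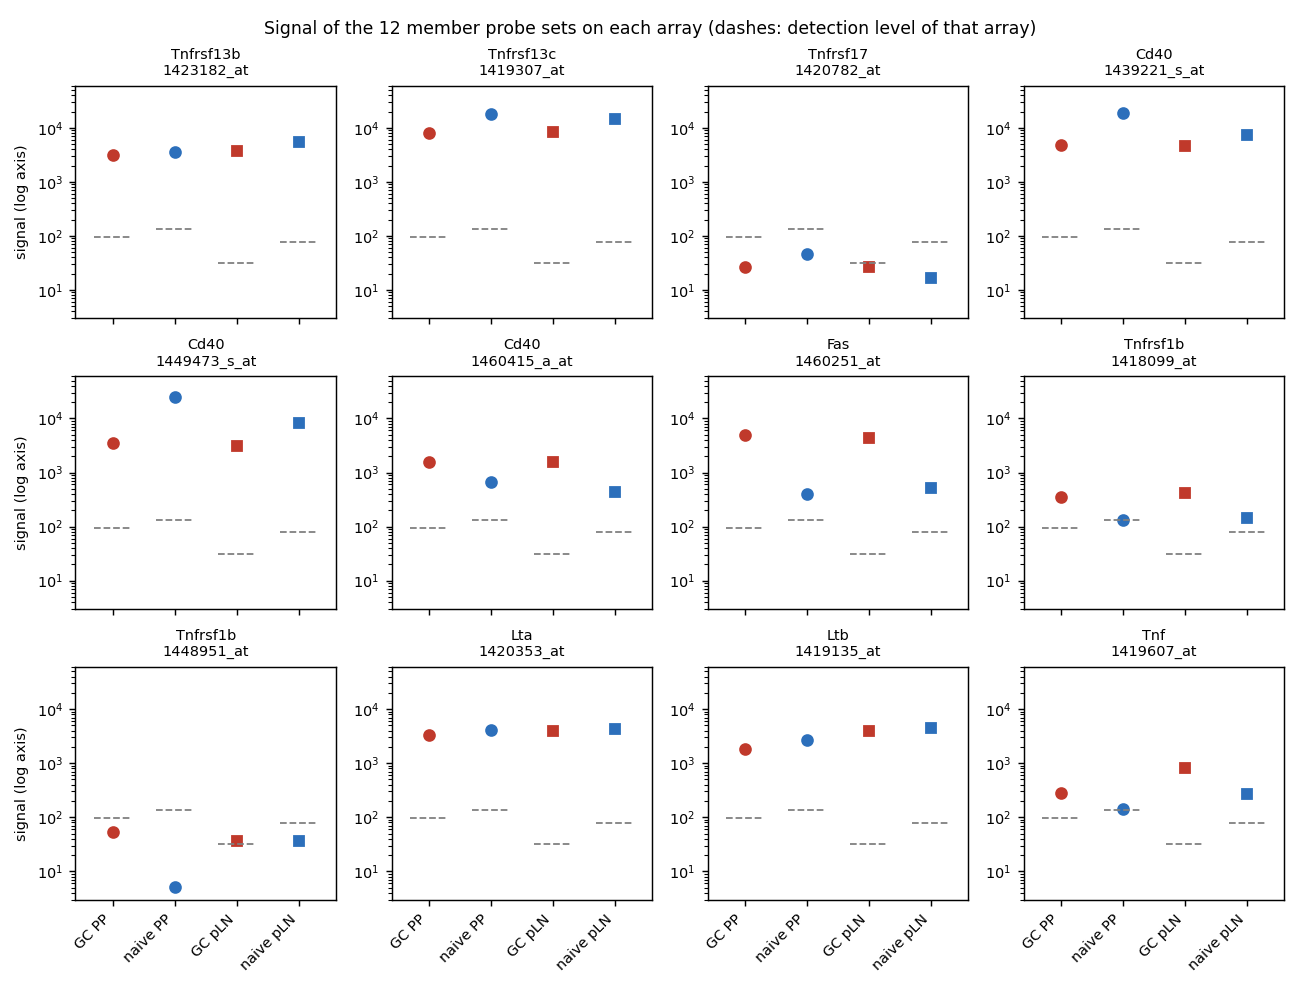
Signal of each of the 12 member probe sets (log axis) on the GC PP, naive PP, GC pLN and naive pLN arrays, with GC arrays in red and naive arrays in blue, circles for PP and squares for pLN. Dashes mark each array's detection level (31.4 to 135). Fas stands at 4980 and 4266 on the GC arrays, against 403 and 515 on the naive arrays, and Tnfrsf17 lies under the dashes on all 4 arrays.

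Of the 12 probe sets, 10 were tested between GC and naive cells, since GC cells, naive cells or both detected them in each tissue. These 10 cover 8 genes, all but Tnfrsf17. The test was limma on log2(signal + 16), with the tissue as a block, across all 21560 probe sets that passed the same filter. A log2 fold on this scale understates the change of dim genes. With 1 array per group, the error comes from how far the tissues disagree, moderated over all probe sets. Among the members, 4 were called higher and 2 lower in GC cells at a Benjamini-Hochberg adjusted p under 0.05, and 4 were not called. In all, 33.7% of the tested probe sets were called higher and 17.8% lower in GC cells (51.5% in either direction), so the share of members called was near the background. The median log2 fold was -0.28 for the tested members and 0.40 for all tested probe sets. Tnfrsf13b, Tnfrsf13c, Lta, Ltb and the Cd40 probe sets 1439221_s_at and 1449473_s_at belong to the brightest eighth of tested probe sets. In that eighth the median was -0.72 and 36.7% were called lower, so the medians above compare probe sets of unlike signal. The median of all tested moved to 0.09 under quantile normalization, to 0.16 under cyclic loess and to 0.26 under the deposited scaling. Of all called probe sets 65.5% were higher, but 53.4% with quantile normalization, 50.8% with 1 probe set per gene and 48.9% among those above the level on all 4 arrays. Both GC arrays lay above both naive arrays for 4 members (47.9% of all tested) and below both for 4 (30.8%), and the arrays overlapped for Tnfrsf13b and Ltb.

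**Figure D2:**
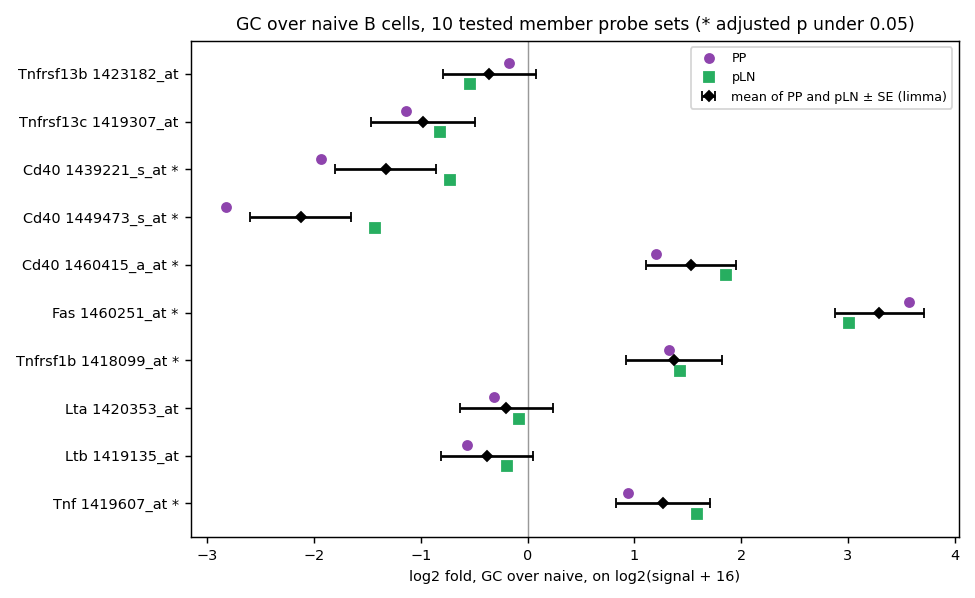
Log2 fold of GC over naive cells, on log2(signal + 16), for the 10 tested member probe sets. Circles are PP, squares are pLN, and diamonds with bars are the limma mean over the 2 tissues ± its SE, moderated over all probe sets. The 3 probe sets of Cd40 fall on both sides of 0, from -2.13 to 1.53.

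Neither Tnfrsf13c nor Tnfrsf13b passed the test, and Tnfrsf17 was not tested. Tnfrsf13c, the gene of BAFF-R, had a signal of 8079 in GC cells against 17863 in naive cells of PP, and 8344 against 14755 in pLN. It was thus lower on both GC arrays, by 2.21-fold in PP and 1.77-fold in pLN, while the GC arrays lay close together. The log2 fold was -0.98 ± 0.48 (limma SE, moderated over all probe sets, limma adjusted p = 0.0892), with a 95% interval from -1.97 to 0.0060. It was called lower without the tissue block (adjusted p = 0.037), with the values as deposited (-1.12, adjusted p = 0.0358), without naive pLN (-1.12, adjusted p = 2.5e-04) and without naive PP (-0.84, adjusted p = 6.6e-04). The fold was 0.0065 with quantile normalization and 0.066 after cyclic loess, so not even its direction was kept under those scalings. Tnfrsf13c belongs to the brightest eighth of tested probe sets, whose median log2 fold was -0.72 and of which 36.7% were called lower.

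Tnfrsf13b encodes TACI, which binds BAFF and APRIL and restrains B cell numbers. It read 3163 in GC cells against 3575 in naive cells of PP, and 3734 against 5445 in pLN. The GC pLN signal lay above the naive PP one, so the groups overlapped. Its log2 fold of -0.36 ± 0.44 was not called (limma adjusted p = 0.504, 95% interval from -1.25 to 0.53), and was 0.078 after cyclic loess. Without naive PP it was called lower (-0.66, adjusted p = 0.0179), and without naive pLN the fold was -0.06.

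Tnfrsf17 encodes BCMA, the APRIL receptor that sustains long-lived plasma cells. It read 26.6 in GC cells against 46.3 in naive cells of PP, and 26.0 against 16.9 in pLN, below the detection level on all 4 arrays. No fold was measured for it. Of 7 plasma cell markers, 7 were detected on each GC array, against 5 on naive PP and 6 on naive pLN, each by its own array's level. Jchain, which joins polymeric antibodies, read 10618 in GC cells against 827 in naive cells of PP, and 9253 against 1707 in pLN. Of these 7 markers, 3 were called higher in GC cells (Jchain, Mzb1 and Prdm1) and 4 were not called. Over all genes tested at 1 probe set per gene, 25.3% were called higher. Prdm1 was under the level on both naive arrays and Mzb1 on naive PP, so both entered the test through the GC arrays alone. Their p-values are therefore not independent of the filter.

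Cd40 was read differently by its 3 probe sets. By 1449473_s_at it was lower in GC cells, with 3459 in GC cells against 24594 in naive cells of PP, and 3070 against 8312 in pLN. Both GC arrays lay below both naive arrays, and the naive PP array stood far above the naive pLN array. The log2 fold of this probe set was -2.13 ± 0.47 (limma adjusted p = 5.1e-04). By 1439221_s_at the signal was 4894 in GC cells against 18770 in naive cells of PP, and 4522 against 7500 in pLN. Both of these probe sets also belong to the brightest eighth. This second probe set gave the same order of arrays and a smaller fold, -1.33 ± 0.47 (limma adjusted p = 0.0199). Its call was lost after cyclic loess with a smaller fold (-0.53, adjusted p = 0.235). It was lost at about the same fold without the tissue block (adjusted p = 0.0547), without the filter (adjusted p = 0.0505), without GC PP (-1.39, adjusted p = 0.258) and without GC pLN (-1.28, adjusted p = 0.263), and when 2-fold was required in both tissues. Without naive PP it was called with a fold of -0.67.

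The third probe set of Cd40, 1460415_a_at, was higher in GC cells. It read 1572 in GC cells against 673 in naive cells of PP, and 1586 against 427 in pLN. The GC arrays agreed closely and both stood above both naive arrays, with a log2 fold of 1.53 ± 0.42 (limma adjusted p = 0.0033). Without naive PP the fold of 1449473_s_at was -1.35. The folds of the highest and the lowest Cd40 probe set differed by 3.66 on the log2 scale, under the same arrays and the same scaling. On all 4 scalings, 1449473_s_at was called lower and 1460415_a_at higher. Without the GC PP array or without the GC pLN array, neither passed the test (adjusted p from 0.0828 to 0.137), though their folds changed little (-2.21 and -2.04 for 1449473_s_at, 1.54 and 1.52 for 1460415_a_at). Of 4719 genes with several tested probe sets, 500 (10.6%) had at least 1 probe set called higher and another called lower. The platform annotation does not place the probe sets along the transcript. The direction of Cd40 between GC and naive cells is therefore not settled by these arrays.

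Fas was the gate that separated the sorted populations, so its transcript is a check of the labels. It read 4980 in GC cells against 403 in naive cells of PP, and 4266 against 515 in pLN. GC cells were 12.3-fold higher in PP and 8.28-fold higher in pLN, with a mean log2 fold of 3.29 ± 0.42, and 96.0% of tested probe sets had a lower fold. Fas was called higher under all 16 alternatives, with log2 folds between 3.12 and 3.46.

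Tnfrsf1b encodes TNFR2, which binds TNF and lacks a death domain. By 1418099_at it read 353 in GC cells against 131 in naive cells of PP, and 414 against 144 in pLN. Both GC arrays stood above both naive arrays, and the naive PP signal lay just under its detection level. This probe set thus entered the test through the GC arrays alone, and its p-value is not independent of the filter. The log2 fold was 1.37 ± 0.45 (limma adjusted p = 0.0121), or 1.36 with the naive PP signal set at the level. In its eighth of signal 41.4% of probe sets were called higher, with a median of 0.73. The call was lost with quantile normalization (0.73, adjusted p = 0.207), after cyclic loess (0.75, adjusted p = 0.138), without GC PP (1.48, adjusted p = 0.184) and without GC pLN (1.26, adjusted p = 0.224). The other probe set, 1448951_at, read 52.8 in GC cells against 5.13 in naive cells of PP, and 35.8 against 36.7 in pLN. It was detected on the GC pLN array only and was not tested.

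The ligand genes Ltb, Tnf and Lta lie next to each other on chromosome 17, with no other protein-coding gene between them in the RefSeq annotation of GRCm38.p6. Their promoters, from 250 bases before to 50 after the start site, are shown because these 3 neighbours gave different patterns on the same arrays. They come from RefSeq (build GRCm38.p6), at chr17:35194257-35194556 on the + strand for Ltb, chr17:35201958-35202257 on the - strand for Tnf and chr17:35205302-35205601 on the - strand for Lta. Capitals mark matches, on either strand, to the kappaB consensus, the site of NF-kB, and to TATAAA, the core of a TATA box.
Ltb: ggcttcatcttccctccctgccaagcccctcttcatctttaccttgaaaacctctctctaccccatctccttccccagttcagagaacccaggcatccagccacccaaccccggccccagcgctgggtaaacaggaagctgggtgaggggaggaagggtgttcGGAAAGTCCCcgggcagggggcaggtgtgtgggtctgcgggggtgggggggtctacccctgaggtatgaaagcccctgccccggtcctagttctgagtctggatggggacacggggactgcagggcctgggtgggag
Tnf: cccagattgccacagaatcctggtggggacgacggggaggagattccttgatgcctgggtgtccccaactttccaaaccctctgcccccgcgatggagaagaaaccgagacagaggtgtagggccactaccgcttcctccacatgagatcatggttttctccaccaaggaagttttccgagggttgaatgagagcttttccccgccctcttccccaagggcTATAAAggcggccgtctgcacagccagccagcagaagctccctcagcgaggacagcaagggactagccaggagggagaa
Lta: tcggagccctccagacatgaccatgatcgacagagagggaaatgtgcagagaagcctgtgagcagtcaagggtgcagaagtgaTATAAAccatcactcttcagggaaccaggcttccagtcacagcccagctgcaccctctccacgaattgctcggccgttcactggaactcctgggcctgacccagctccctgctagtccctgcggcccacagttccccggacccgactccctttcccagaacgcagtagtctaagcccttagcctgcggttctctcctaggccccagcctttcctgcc

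The kappaB consensus occurs in 8.46% of the 32851 promoters of the table and in 1 of the 8 member promoters it holds, that of Ltb, on the opposite strand, with its first base at -87 from the start site. TATAAA occurs in 13.6% of all promoters and in 3 of the 8. Its first base lies at -29 in Tnf, at -167 in Lta and at -114 in Tnfrsf17. These matches describe the letters of the windows only.

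Tnf, the gene of the inflammatory cytokine, was the only ligand called. It read 284 in GC cells against 140 in naive cells of PP, and 825 against 264 in pLN. GC cells were higher in both tissues, by 2.03-fold in PP and 3.13-fold in pLN, and both GC arrays stood above both naive arrays, GC PP only narrowly above naive pLN. The log2 fold was 1.27 ± 0.44 (limma adjusted p = 0.0179), and in its eighth of signal 40.6% were called higher, with a median of 0.64. The call was lost without the tissue block (adjusted p = 0.113), with quantile normalization (0.68, adjusted p = 0.236) and after cyclic loess (0.66, adjusted p = 0.189). It was also lost when 2-fold was required in both tissues, without GC PP (2.01, adjusted p = 0.075), without GC pLN (0.52, adjusted p = 0.643) and without naive PP (0.84, adjusted p = 0.253), so the size of the fold rests on single arrays.

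Lta, which encodes lymphotoxin alpha, read 3262 in GC cells against 4075 in naive cells of PP, and 4008 against 4241 in pLN. The 4 signals lay close together, with both GC arrays just below both naive arrays, and the log2 fold of -0.20 ± 0.43 was not called (limma adjusted p = 0.719, 95% interval from -1.09 to 0.69). It was 0.048 with quantile normalization and 0.23 after cyclic loess.

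Ltb, which encodes the membrane anchor lymphotoxin beta, read 1823 in GC cells against 2719 in naive cells of PP, and 3937 against 4511 in pLN. Tissue separated these signals more than cell type did. The log2 fold of GC over naive cells was -0.38 ± 0.43 (limma adjusted p = 0.466, 95% interval from -1.26 to 0.49), and it was 0.17 without GC PP.

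T cells also express Lta, Ltb, Tnf and Tnfrsf1b, and traces of other cells bear on such values in sorted samples. Of 13 T cell markers, 8 were detected on GC PP against 2 on naive PP, and 12 on GC pLN against 8 on naive pLN. Each count used the cut-off of its own array. For naive cells that was 135 in PP and 78.6 in pLN, for GC cells 95.6 and 31.4. Cd3g (74.6), Cd8b1 (41.6), Cd4 (40.9) and Cd247 (37.2) passed on GC pLN but would miss the naive pLN cut-off. On GC PP, Lat (126), Cd247 (125) and Cd5 (117) would miss that of naive PP. The gap in counts thus does not by itself show more T cell transcript in GC cells. The summed signal of the list was 3596 in GC cells against 15504 in naive cells of PP, and 5972 against 11349 in pLN. Such a sum is set by its brightest probe set, here Cd2, which alone read 2052 in GC cells against 14643 in naive cells of PP and 4752 against 9697 in pLN, and it gives no level of T cell RNA. Cd3d, Cd3g, Lat and Cd247 had log2 folds of the opposite sign, from 1.18 to 1.67, of which those of Cd3d and Cd247 did not pass the test. Cd3e, part of the T cell receptor complex, read 244 in GC cells against 74.1 in naive cells of PP, and 95.3 against 95.8 in pLN. No marker of the list was at 0, and of the 8 tested 2 were called higher (Cd3g and Lat) and 2 lower (Cd2 and Cd8a) in GC cells. Over all genes tested at 1 probe set per gene, 25.3% were called higher and 24.1% lower. Cd3g and Lat were under the level on both naive arrays and entered the test through the GC arrays alone. Their p-values are therefore not independent of the filter. Macrophages and dendritic cells express Tnf and Tnfrsf1b too. Of 11 of their markers, 6 were detected on GC PP against 3 on naive PP, and 6 on GC pLN against 5 on naive pLN. Here too the cut-offs differed. The signals of Adgre1 on GC pLN (55.8) and of C1qb on GC PP (115) lay under the naive cut-off of their tissue. The summed signal of the 11 markers was 6139 in GC cells against 1420 in naive cells of PP, and 4436 against 1434 in pLN. It was set mainly by Apoe on the GC arrays. Of the 5 tested, 3 were called higher in GC cells (Apoe, Lyz2 and Flt3), against the same 25.3% over all genes. Lyz2 and Flt3 were also under the level on both naive arrays and entered the test through the GC arrays alone. Csf1r, the receptor that macrophages need to survive, read 26.2 in GC cells against 155 in naive cells of PP, and 26.0 against 47.9 in pLN, below the level on both GC arrays, and no marker of this list was at 0. The part of RNA from T cells, macrophages or dendritic cells in the values of Tnf and Tnfrsf1b was not tested. Fewer cells of a type and less RNA per cell cannot be told apart in such bulk samples.

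Compared within a tissue, 3 members were at least 2-fold higher and 3 at least 2-fold lower in GC than in naive cells of PP, and 4 were higher and 1 lower in pLN. These counts use the log2(signal + 16) scale, on which Tnf in PP, at 0.94, fell just short of 2-fold although its plain ratio was 2.03. The backgrounds were 39.5% higher and 21.9% lower in PP, and 28.8% higher and 16.5% lower in pLN, over all probe sets detected on either array. These counts have no test. None of the 10 tested probe sets had folds of opposite sign in the 2 tissues. The GC-naive fold of Cd40 was lower in PP than in pLN for all 3 probe sets, by 1.39 (1449473_s_at), 1.21 (1439221_s_at) and 0.65 (1460415_a_at) on the log2 scale. Scaling to the hybridisation controls would add 1.91 to every such fold in PP but 0.51 in pLN. The tissue order of the Cd40 folds thus depends on the scaling. Among the 10, the fold of Fas exceeded that of pLN most in PP, by 0.56. These differences could not be tested with 1 array per group.

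The last comparison set PP against pLN within each cell type, again without a test. In GC cells, 2 members were at least 2-fold lower in PP (1.72% of all probe sets) and 0 higher (3.52%). These were Tnf, at 284 in GC PP against 825 in GC pLN, and Ltb, at 1823 against 3937. Both belong to the same locus, and Lta, the third gene of the locus, read 3262 in GC PP against 4008 in GC pLN. Naive cells gave the same order with smaller ratios. Ltb read 2719 in naive PP against 4511 in naive pLN, and Tnf 140 against 264. The log2 folds of PP over pLN were -1.49 in GC and -0.84 in naive cells for Tnf, and -1.10 and -0.73 for Ltb.

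In naive cells, 2 members were at least 2-fold higher in PP (8.72% of all probe sets) and 0 lower (17.4%). Both were Cd40 probe sets. 1449473_s_at read 24594 in naive PP against 8312 in naive pLN, and 1439221_s_at 18770 against 7500. The third Cd40 probe set read 673 against 427. In GC cells the 3 Cd40 probe sets differed little between tissues, with log2 folds of PP over pLN of 0.17, 0.11 and -0.01. The Gapdh 3' control was also brighter on naive PP, at 31610 against 17780 on naive pLN, and its 5' control dimmer, at 328 against 949. The median of the hybridisation controls was also higher on naive PP, at 11565 against 4588 on naive pLN. With quantile normalization 0 members were at least 2-fold higher in naive PP. The parts of the naive PP array's 3' bias and of its scaling in the Cd40 values were not tested. The remaining tested receptor probe sets differed less than 2-fold between tissues in both cell types, with Tnfrsf13c at a log2 fold of -0.05 in GC and 0.28 in naive cells.

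**Figure D3:**
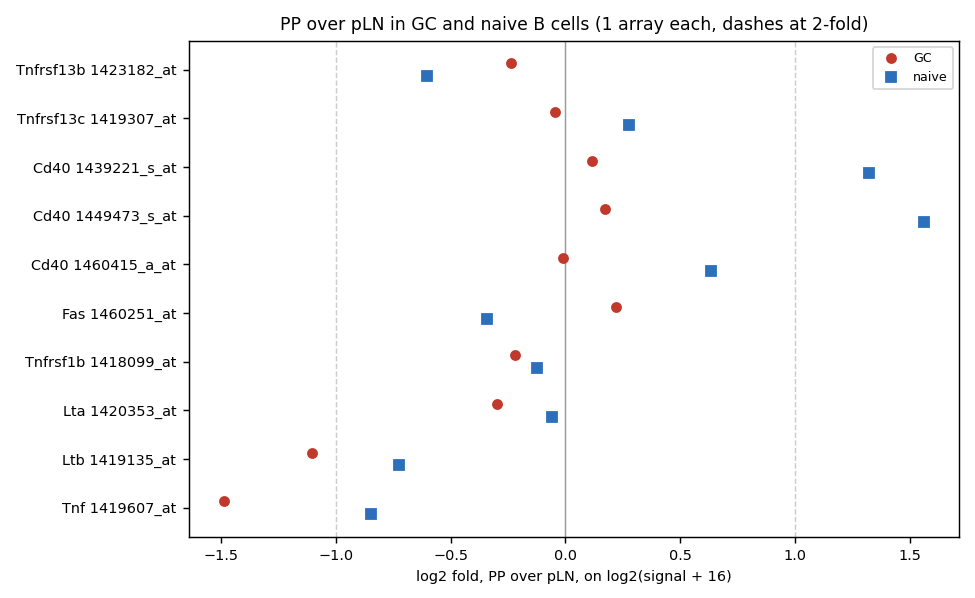
Log2 fold of PP over pLN, on log2(signal + 16), for the 10 tested member probe sets in GC cells (circles) and naive cells (squares), 1 array each. Dashed lines mark 2-fold. Tnf and Ltb lie left of the lower line in GC cells, at -1.49 and -1.10, and 2 Cd40 probe sets lie right of the upper line in naive cells, at 1.56 and 1.32.

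The patterns of the members over the 4 arrays were set against those of 18018 tested probe sets of other named genes, as the Euclidean distance between log2 profiles centred on their own mean. The nearest to Tnf were Dusp7, a phosphatase of ERK kinases (distance 0.10), and Bmf, a BH3-only inducer of apoptosis (0.33). Only 18 probe sets (0.0999%) lay within 0.5 of Tnf, the smallest number among the 8 members compared. Ltb had 105 such probe sets, with Clcn5 and Tm6sf1 nearest (0.04 and 0.05). Fas had 205, with Cmah, an enzyme of sialic acid synthesis, and Mtfr1 nearest (0.10 and 0.12). Swap70, a signalling protein of B cells, and Ermard were nearest to the Cd40 probe set 1439221_s_at (0.07 and 0.04), among 526. Plaur and Lpar2 were nearest to Tnfrsf13b, Mamdc4 and Scap to Tnfrsf13c, Clptm1 and Naa35 to Tnfrsf1b, and Dnmt3a and Psmf1 to Lta, each of these 4 with 1122 to 1712 probe sets within 0.5. With 4 arrays such likeness is common and is a description only.

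Other genes of the pathway were counted over lists with 1 probe set per gene, that of the highest mean log2 signal. Over all 9851 genes tested in this way, 25.3% were called higher and 24.1% lower. Most other receptors and ligands of the superfamily were too dim to test. Of 21 other TNF receptors measured, 5 were tested, and 1 was higher, 2 lower and 2 not called (Tnfrsf4 and Relt). Tnfrsf12a, the receptor of TWEAK, was at least 4.40-fold lower in GC cells, where it was not above the level on either array. In such a bound the dim arrays count at their detection level where the signal was under it, and signals are geometric means over the tissues. Tnfrsf18, the gene of GITR, read 159 in GC cells against 432 in naive cells of PP, and 167 against 529 in pLN (log2 fold -1.46 ± 0.44, limma adjusted p = 0.0070), a call lost without GC PP and without GC pLN. Tnfrsf21, the death receptor DR6, was higher by at least 1.10-fold (limma adjusted p = 0.0427), a call lost under 11 of the 15 alternatives that tested it, all 3 other scalings among them. Of 11 other ligands measured, only Tnfsf9 was tested. It encodes the ligand of the costimulatory receptor 4-1BB and stood higher in GC cells by at least 6.98-fold (limma adjusted p = 5.3e-07). Tnfsf9 and Tnfrsf21 were under the level on both naive arrays and entered the test through the GC arrays alone. Tnfrsf12a was under it on both GC arrays and entered through the naive arrays alone. The p-values of these genes are therefore not independent of the filter. The ligand gene of BAFF, Tnfsf13b, read 98.2 in GC cells against 92.8 in naive cells of PP, and 29.6 against 59.2 in pLN, and was above the level on GC PP alone.

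Genes of the alternative NF-kB pathway, downstream of BAFF-R and CD40, were lower for 2 of 3 measured members. Nfkb2, whose product p100 is cut to p52, read 1111 in GC cells against 6721 in naive cells of PP, and 899 against 4791 in pLN (log2 fold -2.49 ± 0.42, limma adjusted p = 2.0e-05). Map3k14, the gene of the kinase NIK, had a log2 fold of -2.10 ± 0.41 (limma adjusted p = 1.4e-04), and Relb one of -0.28, which was not called. Another probe set of Nfkb2 had a fold of -0.03 and another of Map3k14 one of -0.26. Nfkb2 and Map3k14 were both called lower under all 4 scalings, and Map3k14 lost its call without GC PP.

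Of 10 genes of the classical NF-kB pathway and its feedback, 6 were called lower, 1 higher and 3 not, against 24.1% lower and 25.3% higher over all genes. Nfkbie, an inhibitor of NF-kB, had a log2 fold of -2.19 ± 0.48, the kinase gene Ikbkb one of -2.05 ± 0.48 and the subunit gene Rela one of -1.73 ± 0.42 (limma adjusted p from 4.9e-04 to 0.0013). The 3 probe sets of Ikbkb ranged from -2.05 to -0.17, and the 5 of Nfkbia, another gene called lower, from -1.17 to 1.06. Tnfaip3, which encodes the feedback enzyme A20, was the gene called higher (2.31 ± 0.44, limma adjusted p = 8.4e-05). The list median was -1.34, against -0.028 over all genes at 1 probe set per gene and 0.40 over all tested probe sets. Of the 10 genes, 5 belong to the brightest eighth of probe sets, of which 36.7% were called lower and 8.57% higher. With quantile normalization and after cyclic loess 5 genes were called lower. When the GC PP or the GC pLN array was left out 0 were, although the list median stayed at -1.34 and -1.27, and without naive pLN 8 were and without naive PP 7. Tnfaip3 lost its call without GC PP.

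Of 12 TRAF adaptors and receptor-proximal genes tested, 2 were higher, 2 lower and 8 not called. Tank, a TRAF-binding regulator, had a log2 fold of 2.67 ± 0.42 and Birc2, a ubiquitin ligase that limits NIK, one of 1.44 ± 0.44. Tradd, the adaptor of TNF receptor 1, had -1.90 ± 0.47 and Traf1 -1.14 ± 0.45, but another probe set of Tradd had a fold of 2.14 and another of Traf1 one of 1.64. The calls of Birc2 and Tradd were lost without GC PP and without GC pLN, and that of Traf1 under 7 of 16 alternatives. Of 6 genes of the Fas death pathway, limma called 0 by their brightest probe sets, and 0 had an unadjusted p under 0.05. With quantile normalization 1 was called higher and 1 lower, after cyclic loess 1 higher, without naive pLN 3 higher and 2 lower, and without naive PP 1 higher. The 5 tested probe sets of Cflar ranged from -0.88 to 2.48. The 2 of Fadd reached 2.17 and the 3 of Bid 1.86, so the count of 0 covers the brightest probe sets only. Fadd, the adaptor of Fas, read 264 in GC cells against 108 in naive cells of PP, and 265 against 231 in pLN, and Casp8, the initiator caspase, 1836 against 1188 and 1535 against 2144.

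**Figure D4:**
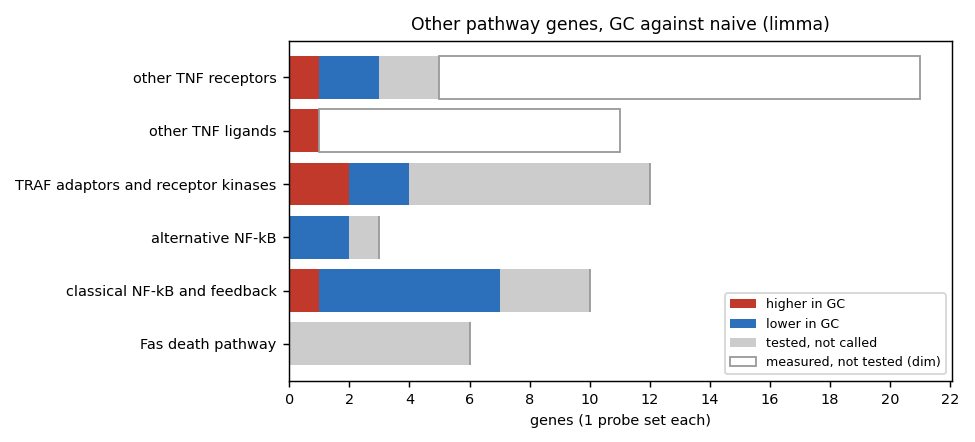
Number of genes of each pathway list that were called higher (red) or lower (blue) in GC than in naive cells, tested and not called (grey) or measured but too dim to test (white), 1 probe set per gene. The classical NF-kB list holds 6 of the genes called lower, and 0 of 6 Fas death pathway genes was called.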

How the data were processed

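The deposited table holds intensity values of 4 Affymetrix arrays, each divided by its own median, as the values show. Per the submitters' processing notes, GCOS made the signals. Its version and target signal: not given in the sources used here. Per the labels' protocols, TRIzol RNA of sorted cells was labelled with biotin. Here a 2% trimmed mean of 500 was set on every array, an offset of 16 was added and log2 taken. Of 45101 probe sets, 34958 had 1 gene symbol, 932 several and 9211 none listed. Entrez identifiers of 34754 matched RefSeq, which changed 0 symbols. The comparison of cell types used limma 3.58.1 in R 4.3.3 (tissue block, intensity trend, prior of 29.1 degrees of freedom), on probe sets detected in PP and pLN alike for GC cells or for naive cells. The detection level used 43 genes of other tissues. On simulated data without a tissue effect or 3' bias, the fit was checked for recovering large log2 folds and for the sign of calls. That check set no limit on false calls. Comparisons of 1 array with 1 array are counted at 2-fold with the brighter array above its level. P-values rest on tissue disagreement pooled mostly over all probe sets, with a prior of 29.1 degrees of freedom against 1 residual. They measure little of a probe set's own disagreement, and only 4 arrays bound their precision. Members with all their probe sets were named, of every other list up to 4 called genes by fold and those behind small counts, and the 2 nearest profiles per member. Relb, Tnfsf13b, Fadd, Casp8, Cflar, Bid, Cd3e, Cd3d, Cd247, Cd4, Cd8b1, Cd5, Nfkbia and Csf1r were named outside this rule, after their values were seen. The members, the lists and the gene set behind the detection level were chosen with earlier results of these data known. Alternatives changed the scaling, the offset, the filter, the choice of probe set, the tissue block, the intensity trend or the fold, or left out 1 array. Setting the level at the 95th percentile was added after seeing the data. Promoters came from RefSeq, with 8 of 9 members matched.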

Additional observations from a re-analysis of the deposited data

How the results depend on the processing

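Each tested member had 15 or 16 alternatives. Only the fold of Fas kept its direction and its call under all of them. Signs turned for Tnfrsf13c (0.0065 with quantile normalization, 0.066 after cyclic loess), Lta (0.048 and 0.23), Tnfrsf13b (0.078 after cyclic loess) and Ltb (-0.94 to 0.17 with 1 array left out, positive only without GC PP); the cause was not tested. Member probe sets called higher numbered 4, but 2 with quantile normalization and after cyclic loess, and 1 to 4 when 1 array was left out, which was fitted without the tissue block, the lone array of a cell type being assumed to vary like the others. Those called lower numbered 2, but 1 after cyclic loess, without the filter, with 1 probe set per gene and with 2-fold required in both tissues, and 0 to 4 with 1 array left out. Over all probe sets, 7275 were higher and 3827 lower. With all 4 arrays above the level 3361 were higher, with 1 probe set per gene 2375 were higher and 2303 lower; 14616 and 9851 were tested there, and the cause of the lower share called higher was not tested. With 1 array left out, 2483 to 8875 were higher and 762 to 5465 lower. No replicate block (tissue left out) gave 6258 higher and 3482 lower and, of the members, 3 higher and 2 lower. The 2-fold counts of members moved as follows. In GC over naive cells of pLN, 1 was lower, against 0 after cyclic loess, with 1 probe set per gene and at 3-fold, and 3 at 1.5-fold. In PP, 3 were higher, against 1 with quantile normalization, after cyclic loess and at 3-fold, and 3 lower, against 1 on both of those scalings. In PP over pLN, 2 were lower in GC cells, against 0 at 3-fold. In naive cells 2 were higher, against 0 with quantile normalization and at 3-fold, and 1 with the values as deposited and with 1 probe set per gene; 0 were lower, against 2 with the values as deposited, 1 without the filter and 3 at 1.5-fold. Signal over background limits Tnfrsf17 and the second Tnfrsf1b probe set, which were tested only without the filter or, for Tnfrsf1b, without GC PP, and called in neither.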
